A study of Mus musculus with 6 samples.

Results

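Hepcidin and 9 further genes that handle iron were followed through the response of mouse liver cells to tumour necrosis factor alpha (TNFα), an inflammatory cytokine. The 10 genes are Hamp, Tfrc, Tfr2, Trf, Slc40a1, Fth1, Ftl1, Cp, Steap4 and Slc11a2, and their members are all probes that the platform's probe table maps to these symbols and to no other. They had 21 of 45281 probes on the array, and 10 of the 19057 genes with a named probe. RNA came from primary hepatocytes, freshly isolated rather than immortal liver cells, of male C57Bl/6J mice. It was hybridised to 6 single-colour Illumina mouse BeadChip arrays, 2 per group. The groups were cells given 2 ng/mL recombinant murine TNFα for 2 days, cells given that dose for 2 hours, and untreated cells. All 3 groups were kept on collagen with 5% serum, 50 nM dexamethasone, a glucocorticoid, and 1 nM insulin. The labels do not give the time that untreated cells had spent in culture, so exposure for 2 days and any difference in culture time cannot be told apart. Nor do they state if the replicates of a group are different mice or different cultures. All p-values therefore reflect array-to-array spread, part or all of which may be technical.

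Hepcidin, the peptide encoded by Hamp, is made by hepatocytes and binds ferroportin (Slc40a1), the only known iron exporter of mammalian cells, which is then degraded, so that less iron enters the blood. Its transcription is driven by iron through bone morphogenetic proteins (BMPs) and SMAD factors, and by inflammation through interleukin 6 and STAT3. Inside the cell, iron regulatory proteins bind the transcripts of the transferrin receptor, ferritin and ferroportin. For ferritin and ferroportin, part of this control does not show in the RNA level.

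The 250 bases before the start of Hamp are shown because both inputs act there, beside those of its near copy Hamp2. The sequences are RefSeq's for GRCm38.p6, 5′ to 3′ on the gene's strand. Hamp is at chr7:30944030-30944279 on the minus strand and Hamp2 at chr7:30924182-30924431 on the minus strand. Capitals mark matches to GGCGCC, the core of the BMP-responsive element, and to TTCNNNGAA, the STAT motif.
Hamp: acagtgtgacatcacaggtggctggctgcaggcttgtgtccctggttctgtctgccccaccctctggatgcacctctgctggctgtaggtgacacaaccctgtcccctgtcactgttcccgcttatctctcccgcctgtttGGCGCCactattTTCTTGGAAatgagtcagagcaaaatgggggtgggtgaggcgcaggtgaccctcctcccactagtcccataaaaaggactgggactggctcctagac
Hamp2: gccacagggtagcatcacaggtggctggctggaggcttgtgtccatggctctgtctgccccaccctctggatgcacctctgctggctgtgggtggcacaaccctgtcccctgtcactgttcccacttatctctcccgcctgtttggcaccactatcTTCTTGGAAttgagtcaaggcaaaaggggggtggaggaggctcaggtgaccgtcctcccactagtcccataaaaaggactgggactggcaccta
The windows were identical at 89.7% of aligned columns. Both held the STAT match TTCTTGGAA, at bases 97 to 89 before the start of Hamp and 94 to 86 before that of Hamp2. Hamp also held GGCGCC at bases 109 to 104, which does not overlap the STAT match, and the Hamp2 window held no match to it. Over 32851 windows of this length, searched on both strands, 7.02% held TTCNNNGAA and 9.59% held GGCGCC.

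A probe entered the test if its intensity was above the array median on 2 or more arrays, which 18 of the 21 probes did, at least 1 for each gene. The 3 others, 1 each of Slc40a1, Ftl1 and Steap4, lay between 110 and 154, around the array medians of 143. Intensities are the deposited ones, between 96.5 and 47615 on every array. Changes are log2 fold changes of a limma fit over all 26272 tested probes, with p-values adjusted over all of them (Benjamini-Hochberg), and a change is called at an adjusted p under 0.05. The overall pattern is in the plot of intensities by array and in the plot of changes.

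**Figure D1:**
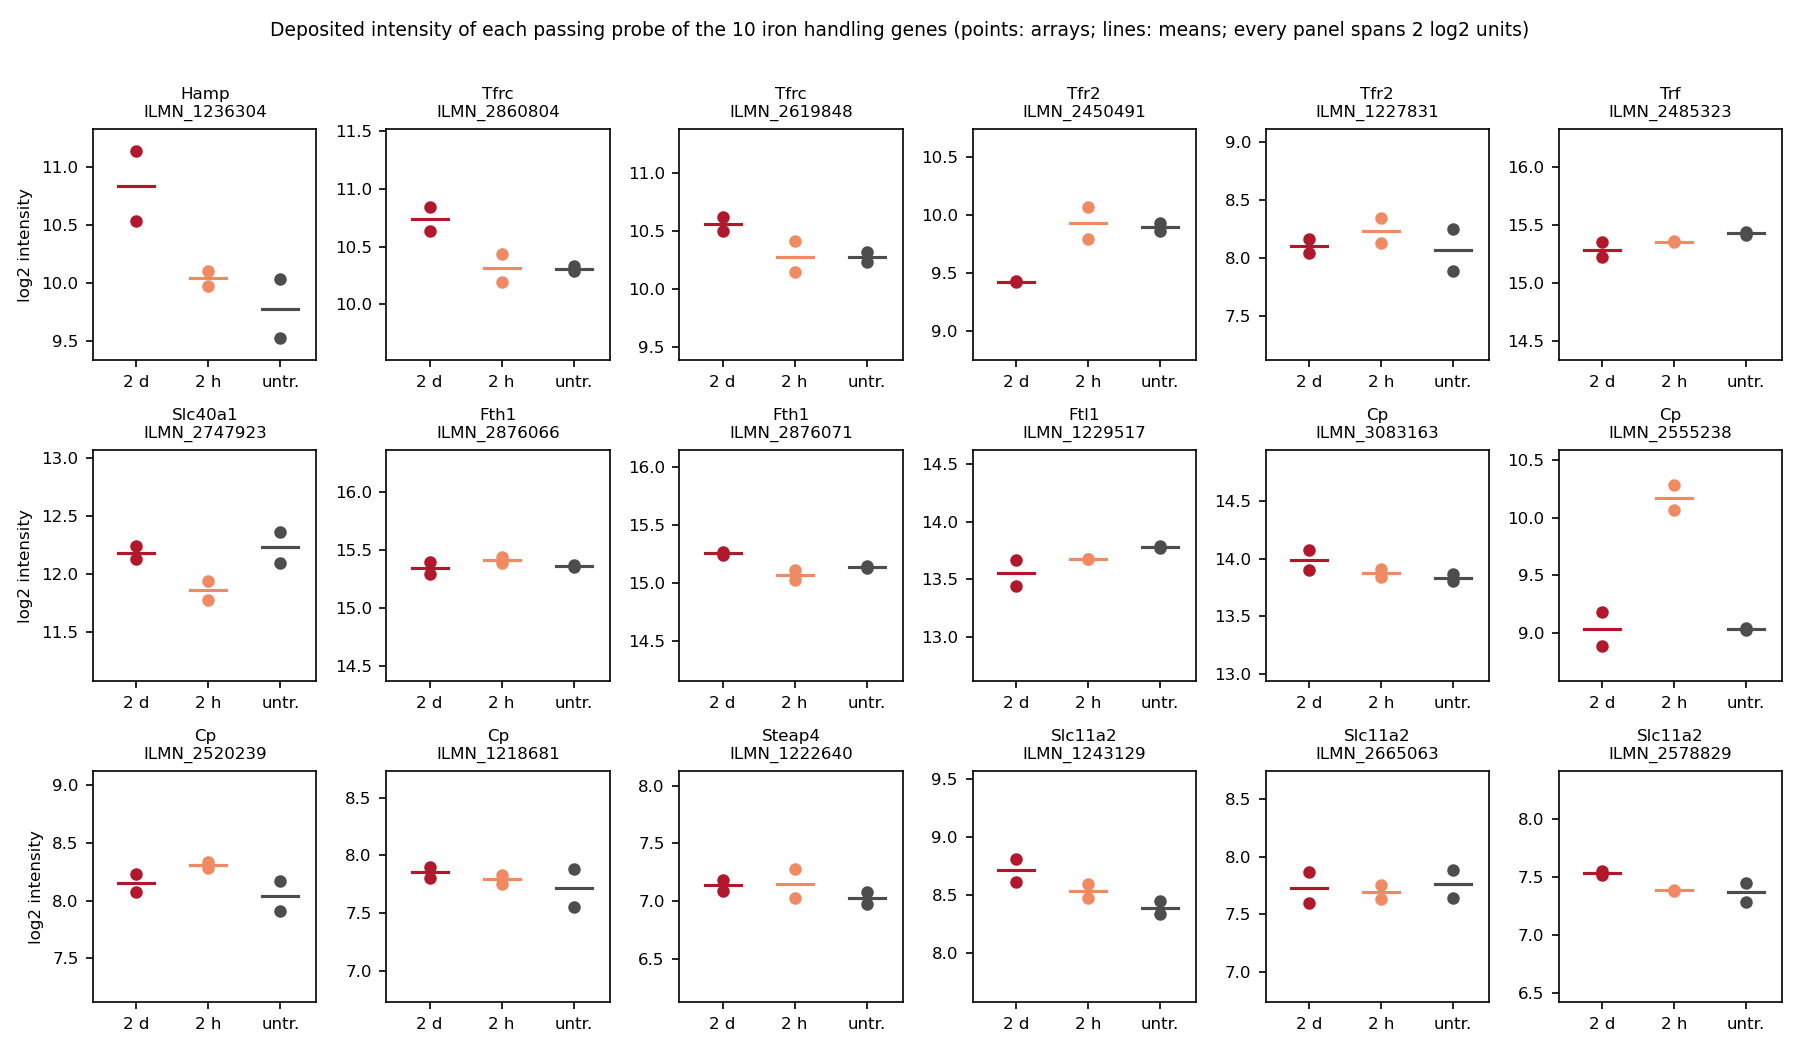
Deposited intensity (log2) of the 18 tested probes of the 10 genes in each array, with cells given TNFα for 2 days on the left, for 2 hours in the middle and untreated cells on the right. Points are arrays, lines are group means, and every panel spans the same log2 range. Hamp is highest in the 2 day arrays, Tfr2 probe ILMN_2450491 lowest there, and Cp probe ILMN_2555238 highest in the 2 hour arrays.

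Of the 18 probes, 4 were called at 2 days against untreated cells. The 3 higher were Hamp and 1 probe each of Tfrc and Slc11a2 (4.96% of all tested probes were called higher), and the 1 lower was a Tfr2 probe (4.67% of all called lower), so that 9.63% of all probes were called. At 2 hours 1 was called, a Cp probe that was higher, where 1.89% of all probes were called, 1.24% higher and 0.651% lower. Between 2 days and 2 hours 4 were called, Hamp and Tfrc higher and Tfr2 and Cp lower, where 11.6% of all were called, 6.09% higher and 5.49% lower. The median log2 change over the 18 probes was 0.11, 0.04 and 0.05 in these comparisons, and that of all probes -0.0011, -0.0079 and 0.0043. Arrays of the compared groups did not overlap for 11, 8 and 11 of the 18 probes, against 47.0%, 38.4% and 49.5% of all probes. The comparisons share arrays, so their counts are not independent. With normexp background correction 0, 1 and 1 of the 18 probes were called in these comparisons by limma, the Cp probe both times, and 3, 1 and 4 when the variance was also trended.

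**Figure D2:**
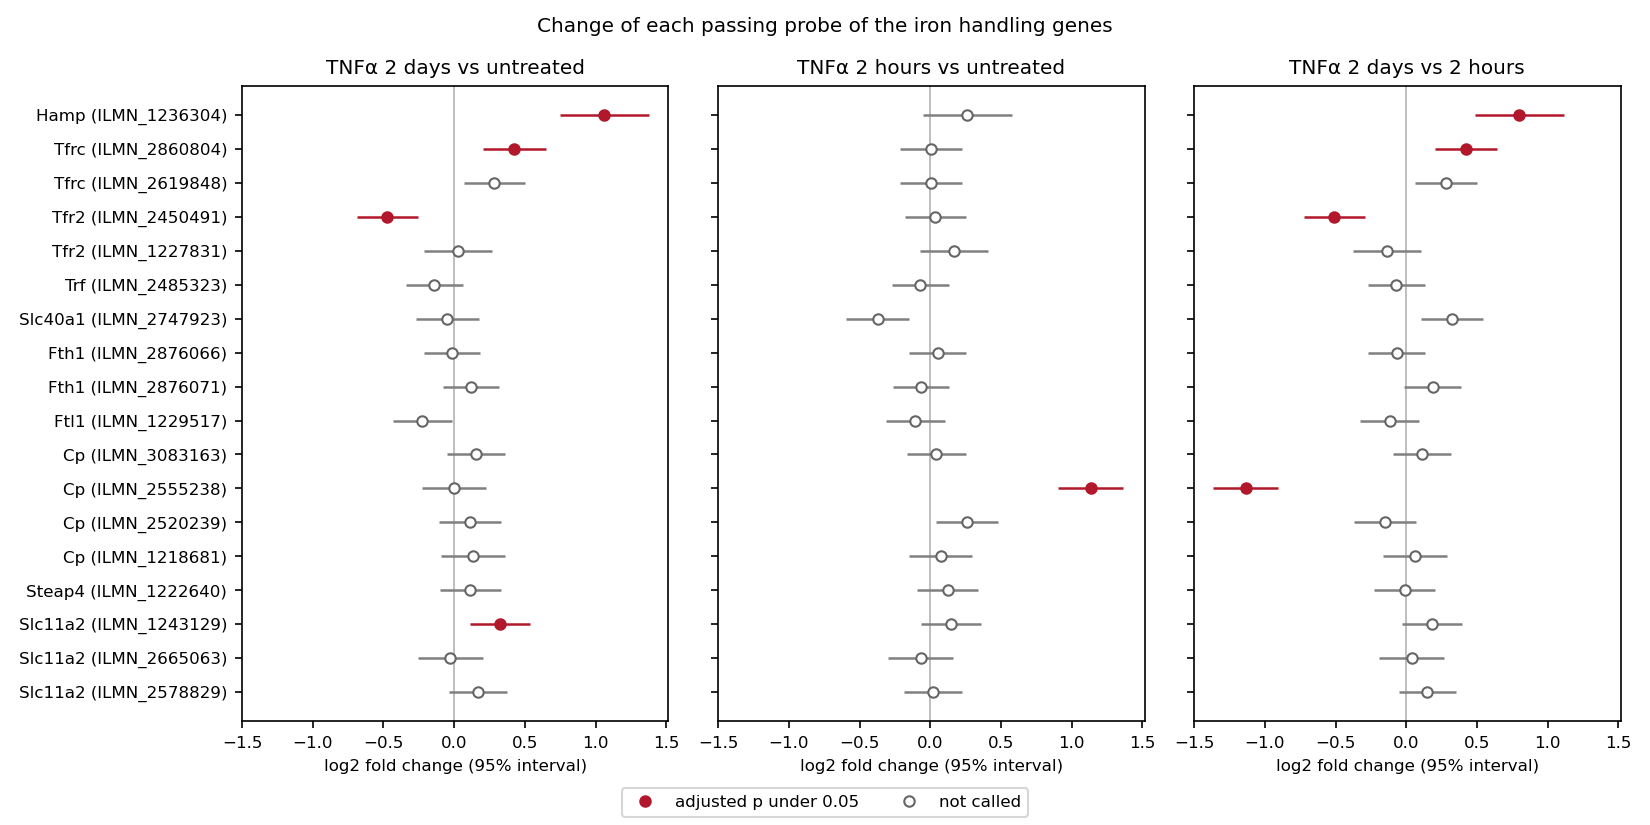
Log2 fold change with its 95% interval (limma) for the 18 tested probes in the 3 comparisons. Filled points are called. Hamp and 1 probe each of Tfrc and Slc11a2 are to the right and 1 probe of Tfr2 to the left at 2 days against untreated cells, and 1 probe of Cp is called at 2 hours against untreated cells.

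Hamp was the most changed of the 10 genes after 2 days. Its probe had intensities of 1485 and 2252 after 2 days, 1004 and 1099.9 after 2 hours, and 1045 and 735 in untreated cells. Both 2 day arrays lay above all others, while the 2 hour arrays overlapped the untreated ones. At 2 days Hamp was 2.09-fold higher than in untreated cells (95% interval 1.68 to 2.60; log2 1.06, SE 0.15, adjusted p = 2.92e-05 by limma). It was also 1.74-fold higher at 2 days than at 2 hours (95% interval 1.40 to 2.17, adjusted p = 0.000754 by limma). At 2 hours its log2 difference from untreated cells was 0.26, with an interval of -0.05 to 0.58 (adjusted p = 0.618 by limma) and a change was not detectable with these arrays. The size rests on few arrays. Without the second 2 day array the log2 difference was 0.76 against untreated cells and 0.50 against 2 hours (adjusted p = 0.0406 by limma). With normexp background correction the values were 1.15 and 0.85, neither of them called (adjusted p = 0.0646 and 0.125 by limma).

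The probe of Hamp2, whose transcript is a near copy of hepcidin's, had 139 and 142 after 2 days, 159 and 142 after 2 hours, and 147 and 160 in untreated cells. These values lie about the array median, the 2 hour and untreated arrays overlapped with the 2 day arrays just below them, and no difference was called (log2 -0.13 at 2 days against untreated cells, adjusted p = 0.562 by limma). Whether the Hamp probe also bound Hamp2 RNA was not tested.

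In whole cultures, fewer cells of a type and less RNA per cell cannot be told apart. The hepatocyte markers, 11 of 12 tested, summed to 91371 to 94469 in the 2 day arrays, 143615 to 146170 in the 2 hour arrays and 141462 to 147812 in untreated cells, with 5 called lower at 2 days by limma: Cps1 (-3.10), Asgr1 (-1.60), Apoa1 (-0.82), Hnf4a (-0.82) and Ahsg (-0.48). The probes of Alb and Fgb lay about the array median on all arrays (119 to 174), and that of Tat was not tested. Macrophage markers, 11 of 14 tested, summed to 2313 to 2487 at 2 days, 2058 to 2068 at 2 hours and 2068 to 2120 in untreated cells, with 3 higher at 2 days, the complement genes C1qa (0.36), C1qb (0.75) and C1qc (0.42). The other tested macrophage markers were not called, from -0.14 (Timd4) to 0.31 (Cd163), and the median of the list was 0.08. The macrophage markers Clec4f and Cd5l were not tested. Bile duct markers summed to 3452 to 3717 at 2 days, 2077 to 2108 at 2 hours and 1484 to 1505 in untreated cells. Sox9 alone of them was called (1.78 at 2 days and 0.79 at 2 hours). It had 2796 and 3027 after 2 days, 1469 and 1465 after 2 hours, and 852 and 842 in untreated cells, most of each sum. The other bile duct probes lay at 117 to 242. Erythroid markers summed to 1135 to 1159 at 2 days, 1167 to 1192 at 2 hours and 1107 to 1180 in untreated cells. The erythroid probes lay at 109 to 189 and the macrophage probes at 115 to 334, against array medians of 143. Background was not subtracted, so both of these sums are in large part background. Stellate markers summed to 3869 to 4532 at 2 days, 3163 to 3372 at 2 hours and 3126 to 3606 in untreated cells, with Acta2 called higher (0.67) and Reln lower (-0.82) at 2 days, and Reln called higher at 2 hours (0.43). Endothelial markers summed to 2244 to 2245 at 2 days, 2234 to 2435 at 2 hours and 2137 to 2299.8 in untreated cells, with Oit3 called higher (0.43) and Stab2 lower (-0.37) at 2 days. Of all tested genes, 6.46% were called higher and 5.68% lower at 2 days, and 1.65% and 0.945% at 2 hours. The part of these marker shifts in the changes of the iron genes was not tested.

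The receptors for transferrin, the plasma iron carrier, each changed on 1 of their probes at 2 days, in opposite directions. Tfrc, the receptor that brings transferrin iron into cells, had 1589 and 1833 on probe ILMN_2860804 after 2 days, 1387 and 1171 after 2 hours, and 1290 and 1249.9 in untreated cells. The 2 day arrays stood above the other 4. The rise was 0.43 against untreated cells (SE 0.11, adjusted p = 0.0099 by limma) and 0.42 against 2 hours (adjusted p = 0.00931 by limma). The second Tfrc probe was higher by 0.28 in both comparisons, which was not called (adjusted p = 0.103 and 0.0956 by limma), although its 2 day arrays, 1446 and 1573, lay above the 2 hour (1361 and 1131) and untreated arrays (1204 and 1273). The first probe's call against untreated cells was lost without the second 2 day array (0.32, adjusted p = 0.178 by limma) and without the second untreated array (0.40, adjusted p = 0.0627 by limma). Against 2 hours it was lost without the second 2 day array (0.32) and without the second 2 hour array (0.30), and the second probe was called without the first 2 hour array (0.41).

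Tfr2, a transferrin receptor that in hepatocytes serves as a sensor of transferrin saturation and raises hepcidin, fell on probe ILMN_2450491. It had 683 and 688 after 2 days, 887 and 1074 after 2 hours, and 973 and 932 in untreated cells. The 2 day arrays lay below the other 4. The change was -0.47 against untreated cells (SE 0.10, adjusted p = 0.00325 by limma) and -0.51 against 2 hours (adjusted p = 0.00145 by limma). The other Tfr2 probe, ILMN_1227831, did not show it, with 286 and 263 after 2 days, 325 and 280.2 after 2 hours, and 237 and 305 in untreated cells, a log2 difference of 0.03 from untreated cells (interval -0.21 to 0.27). With the mean of both probes the difference was -0.22 and was not called (adjusted p = 0.127 by limma), and against 2 hours the first probe's call was lost without the second 2 hour array (-0.37, adjusted p = 0.0658 by limma).
Of the Tfr2 promoter windows in RefSeq, the one at chr5:137570470-137570719 on the plus strand (GRCm38.p6) held a match to the NF-κB consensus, in capitals, shown since NF-κB is the main factor downstream of TNFα.
Tfr2: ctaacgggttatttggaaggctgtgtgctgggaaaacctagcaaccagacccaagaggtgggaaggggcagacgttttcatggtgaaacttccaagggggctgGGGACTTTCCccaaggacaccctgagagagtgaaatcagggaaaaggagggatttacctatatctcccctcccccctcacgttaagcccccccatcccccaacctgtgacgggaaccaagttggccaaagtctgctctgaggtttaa
The match lies at bases 147 to 138 before the start, and the other Tfr2 windows held none. Of all windows 5.00% held one, a share per window and not per gene.

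Trf encodes transferrin itself, a main secretory product of hepatocytes. Its probe had 38156 and 41811.5 after 2 days, 41715 and 42177 after 2 hours, and 44417 and 43703.5 in untreated cells. The untreated arrays were the highest, but the differences, -0.14 at 2 days and -0.07 at 2 hours, were not called (adjusted p = 0.493 and 0.897 by limma). The probe ranked between 6 and 38 of all probes on every array, near the top of the range, where differences may be compressed.

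Ferroportin (Slc40a1) had its lowest values at 2 hours. It had 4819 and 4464 after 2 days, 3505 and 3921 after 2 hours, and 5266 and 4370.2 in untreated cells. The 2 hour arrays were the lowest, and the 2 day arrays lay within the untreated range. The log2 difference from untreated cells was -0.37 at 2 hours (interval -0.59 to -0.15, adjusted p = 0.0919 by limma) and -0.05 at 2 days (adjusted p = 0.885 by limma). Between 2 days and 2 hours it was 0.32 (adjusted p = 0.0537 by limma). Neither passed the threshold. Without the second untreated array, the lower one, the 2 hour difference was -0.51, so its size depends on which untreated array is kept. Ferroportin is also made by macrophages, whose marker sums at 2 hours and in untreated cells are given above. Those sums are in large part background, and the part of macrophages in this signal was not tested.

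Ceruloplasmin (Cp), a copper ferroxidase that loads exported iron onto transferrin and is secreted by hepatocytes, had 4 tested probes that did not act alike. The brightest, ILMN_3083163 on the RefSeq transcript, had 17269 and 15290.3 after 2 days, 14697 and 15438 after 2 hours, and 14953 and 14285 in untreated cells. The 2 day arrays lay above the untreated ones and overlapped the 2 hour arrays, and the differences of 0.15 at 2 days and 0.04 at 2 hours were not called. Probe ILMN_2555238, placed on the cDNA AK033842, had 582 and 474 after 2 days, 1070.1 and 1244 after 2 hours, and 523 and 529 in untreated cells. Here the 2 hour arrays stood clear above the other 4. It was 2.19-fold higher at 2 hours than in untreated cells (95% interval 1.87 to 2.57; log2 1.13, adjusted p = 2.49e-07 by limma) and lower at 2 days than at 2 hours by a log2 change of -1.14 (adjusted p = 8.1e-08 by limma), with no difference called between 2 days and untreated cells. Of the 2 dimmer RefSeq probes, ILMN_2520239 had 300.5 and 269 after 2 days, 310.5 and 322 after 2 hours, and 288 and 240.4 in untreated cells. Its 2 hour arrays were also the highest, by 0.26 against untreated cells (interval 0.04 to 0.48), without a call (adjusted p = 0.34 by limma). The last probe spanned 188 to 240 over the 6 arrays and was not called. The called rise thus stands on 1 probe, and whether it reads the transcript of the secreted enzyme was not tested.

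The ferritin subunits, heavy (Fth1) and light (Ftl1), form the shell that stores iron. Fth1 probe ILMN_2876066 had 40147 and 43135 after 2 days, 44284 and 42962 after 2 hours, and 41811.5 and 42351 in untreated cells. Its 2 hour arrays lay above the untreated ones, by 0.05 on the log2 scale, not called, and the 2 day arrays overlapped both other groups. Probe ILMN_2876071 had 39611 and 38834 after 2 days, 35558 and 33435 after 2 hours, and 35822 and 36364 in untreated cells, so its 2 day arrays were the highest. The log2 differences at 2 days were -0.02 and 0.12, and neither was called. Both probes ranked within the top 60 of every array. Ftl1 had 13011.5 and 11167 after 2 days, 13059 and 13120 after 2 hours, and 14021 and 14180 in untreated cells. Its untreated arrays were the highest, with a difference of -0.23 at 2 days that was not called (adjusted p = 0.205 by limma). Ferritin genes have near-identical copies in the genome, and the probes may read more than the gene they are named for.

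Slc11a2 (DMT1) carries ferrous iron out of endosomes and into cells. Probe ILMN_1243129, on the cDNA AK049856, had 391 and 449 after 2 days, 355 and 386 after 2 hours, and 349 and 322 in untreated cells. The 2 day arrays were above all others, and the rise against untreated cells was 0.32 (SE 0.10, adjusted p = 0.0482 by limma). It is the weakest call of the 10 genes. It was lost without either untreated array (0.38 and 0.27) and without the second 2 day array (0.22), and was kept under 7 of 17 alternatives. The other 2 probes, of which 1 is on the RefSeq transcript, gave 0.17 and -0.03 and were not called.

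Steap4, a metalloreductase of endosomes that in mouse fat cells is named for its induction by TNFα, was dim. Its tested probe had 146 and 137 after 2 days, 155 and 131 after 2 hours, and 126 and 135 in untreated cells, against an array median of 143. The groups overlapped or nearly met, and the log2 differences from untreated cells were 0.11 at 2 days and 0.12 at 2 hours (interval -0.09 to 0.34), not called. A change was thus not detectable at this signal, and background left in the intensities understates folds of dim probes. The 250 bases before its start, at chr5:7960222-7960471 on the plus strand (GRCm38.p6), are shown because they held matches to 3 of the 4 motifs searched.
Steap4: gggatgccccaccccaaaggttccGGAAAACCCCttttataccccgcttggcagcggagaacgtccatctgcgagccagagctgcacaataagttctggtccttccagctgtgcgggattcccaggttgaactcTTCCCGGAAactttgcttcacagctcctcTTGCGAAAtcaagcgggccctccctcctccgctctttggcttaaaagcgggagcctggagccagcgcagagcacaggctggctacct
In order, the capitals mark the NF-κB consensus on the other strand (bases 226 to 217 before the start), the STAT motif (116 to 108) and the C/EBP motif TTGCNNAA (87 to 80), which 9.56% of all windows held. The matches do not overlap. RefSeq windows, 12 in all, were at hand for 7 of the 10 genes. Among those not shown, a Tfrc window held GGCGCC, and a window each of Cp and Fth1 held the C/EBP motif.

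The other genes of the hepcidin and iron pathways were taken from 6 lists of 91 genes, of which 77 were tested, each by its brightest passing probe. At 2 days against untreated cells 12 were higher and 12 lower, where 6.46% of all tested genes were called higher and 5.68% lower (12.1% in all). At 2 hours 1 was higher and 2 lower, where 1.65% and 0.945% of all were (2.60% in all). Between 2 days and 2 hours 10 were higher and 15 lower, where 8.30% and 6.39% of all were (14.7% in all). Their median log2 changes were 0.0055, 0.024 and 0.0047, and those of all genes 0.0056, -0.012 and 0.014. With normexp 5, 1 and 6 were called. Of the genes named below, Hnf4a, Il6ra, Steap2 and Blvrb kept the call at 2 days, Hmox1 at 2 hours, and Id1, Ncoa4, Slc39a14, Hebp1 and Hmox1 between the times.

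The list for the BMP and SMAD arm of hepcidin regulation had 5 of 18 tested genes higher and 1 lower at 2 days, with a median of 0.11. It holds inhibitors of this signal too, also among the genes called higher, so the counts are not of signal carriers alone. Of all tested genes, 6.46% were called higher and 5.68% lower at 2 days. The lists were chosen with earlier results of these data known, and no list was tested as a set. Id1, a target gene of BMP and SMAD signalling, had 621 and 661 after 2 days, 332 and 321 after 2 hours, and 366 and 466 in untreated cells. It was highest at 2 days, by 0.63 against untreated cells (adjusted p = 0.000278 by limma) and by 0.97 against 2 hours. Id3, another such target, rose by 0.55 and the BMP receptor Bmpr1a by 0.37, while Furin, a protease that cleaves hepcidin's precursor and hemojuvelin, changed by -0.36. The second probe of Furin gave -0.14 at 2 days, not called, and a called 0.44 at 2 hours. The second probe of Bmpr1a gave 0.17, not called. Bmpr1a lost its call without any of the 4 arrays compared (0.35 to 0.39), and Furin without either 2 day array (-0.38 and -0.35) and without the first untreated array (-0.31).
At 2 hours Id2 had 463 and 487, against 852 and 777 in untreated cells, and fell by 0.78 on the log2 scale (adjusted p = 2.52e-05 by limma). A second Id2 probe fell by 0.83, and the last gave -0.17 and was not called. At 2 days against untreated cells these probes gave -0.22, -0.28 and 0.05, none called, so Id2 did not rise with Id1 and Id3. Between 2 days and 2 hours, Id2 was higher by 0.55, Neo1, a co-receptor that binds hemojuvelin, by 0.40, and Tmprss6, the protease that cuts hemojuvelin and so lowers hepcidin, changed by -0.39. The other tested probes of Neo1 and Tmprss6 were not called. Neo1 lost its call without the first 2 day array (0.32) or the first 2 hour array (0.28), and Tmprss6 without the first 2 day array (-0.31) or the second 2 hour array (-0.33). Bmp6, the main iron-dependent ligand, which in liver comes from endothelial cells, had a probe that was not tested, at 124 to 134 on all 6 arrays.

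In the arm of interleukin 6, STAT3 and liver transcription factors, 4 of 12 tested genes were called at 2 days, all lower, with a list median of -0.21. Among all tested genes 5.68% were called lower and 6.46% higher at 2 days. Hnf4a, a nuclear receptor that maintains hepatocyte gene expression and is also among the hepatocyte markers, had 1286 and 1186 after 2 days, 1749 and 2058 after 2 hours, and 2392 and 1982 in untreated cells. Its 2 day arrays were the lowest, by -0.82 against untreated cells (adjusted p = 1.27e-05 by limma). Il6ra, the interleukin 6 receptor, changed by -0.55, Cebpb, a C/EBP factor, by -0.54 and Creb3l3, a liver factor of the stress response that induces hepcidin, by -0.52. The 2 other Il6ra probes gave -0.20 and -0.28 and were not called, and Creb3l3 lost its call without the first untreated array (-0.28) and without the first 2 day array (-0.49). At 2 hours limma called 0 of the 12 (2.60% of all tested genes were called), while 3 had an unadjusted p under 0.05.
Stat3 had 1299 and 1205 after 2 days, 1642 and 1732 after 2 hours, and 1799.9 and 1404 in untreated cells, a change of -0.35 against untreated cells (adjusted p = 0.0515 by limma) that was not called and of -0.43 against 2 hours that was, though not without the second 2 day array (-0.38) or the second 2 hour array (-0.39). Its 2 other probes were not called and went opposite ways, with -0.24 on ILMN_2589790 and 0.30 on ILMN_3096144 at 2 days against untreated cells (adjusted p = 0.183 and 0.0754 by limma) and -0.29 and 0.012 against 2 hours. Socs3, the feedback inhibitor that STAT3 induces, had 248 and 227 after 2 days, 282 and 285 after 2 hours, and 222 and 224 in untreated cells. Its 2 hour arrays were the highest, by 0.35 against untreated cells, without a call (adjusted p = 0.0747 by limma). Of the same arm, 6 genes were lower at 2 days than at 2 hours, where 6.39% of all tested genes were called lower. Among them were Hnf4a (-0.62), Creb3l3 (-0.55), Il6st, the signalling subunit of the interleukin 6 receptor (-0.47), and Cebpb (-0.45). Il6st and Cebpb each lost this call without the second 2 day array (-0.38 and -0.35) or the first 2 hour array (-0.37 and -0.41), and Creb3l3 without the second 2 hour array (-0.41).

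**Figure D3:**
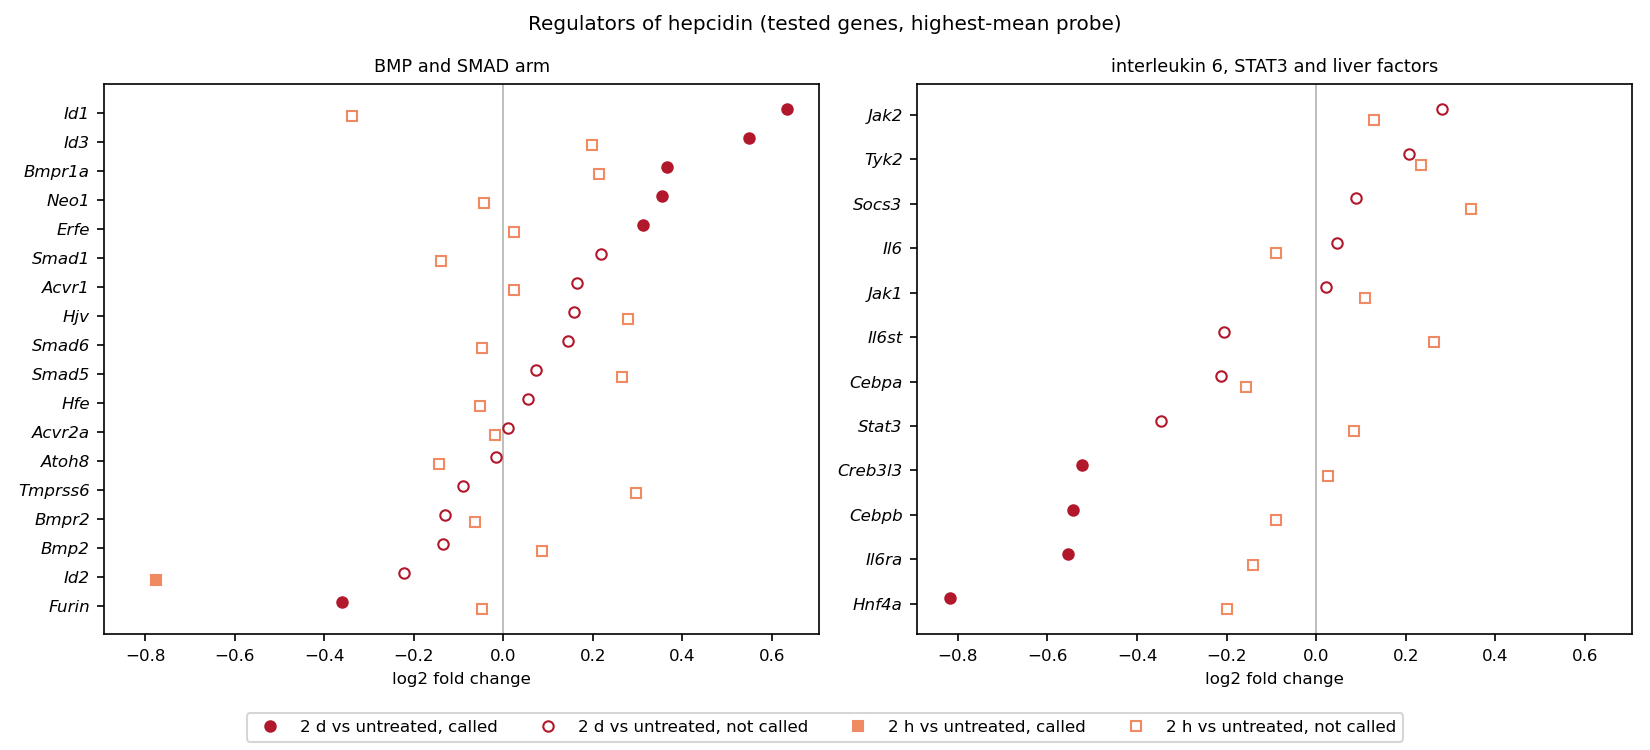
Log2 fold change against untreated cells of the tested genes of the BMP and SMAD arm (left) and of the interleukin 6, STAT3 and liver factor arm (right). Circles are 2 days, squares 2 hours, and filled symbols are called. At 2 days 5 genes on the left lie above 0 as called rises, and the 4 called genes on the right all lie below 0. Of all tested genes, 6.46% were called higher and 5.68% lower at 2 days.

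Among the iron regulatory proteins and ferritin turnover genes, 2 of 8 were higher and 1 lower at 2 days, with a median of -0.05 (6.46% and 5.68% of all tested genes were called so). Ireb2, the iron regulatory protein that iron removes by degradation, had 557 and 559 after 2 days, 474 and 533 after 2 hours, and 427 and 426 in untreated cells, a rise of 0.39 (adjusted p = 0.0112 by limma). Fbxl5, the iron sensor that marks it for degradation, rose by 0.40. Ncoa4, which delivers ferritin to lysosomes for iron release, had 653 and 574 after 2 days, 1021.9 and 1102 after 2 hours, and 796 and 854 in untreated cells. It was lowest at 2 days, by -0.43 against untreated cells and -0.79 against 2 hours (adjusted p = 5.47e-06 by limma), and its 2 other tested probes were also called lower in both comparisons. Aco1, the other iron regulatory protein, was not called in any comparison. Ireb2 lost its call without any of the 4 arrays compared (0.38 to 0.39), Fbxl5 without the first untreated or the second 2 day array (both 0.36), and Ncoa4 without the second untreated array (-0.38) or the second 2 day array (-0.34). A second tested probe of Ireb2 and of Fbxl5 gave -0.0025 and -0.17, not called. Fbxl5 was also higher at 2 days than at 2 hours, by 0.35, a call lost without the first (0.39) or second 2 day array (0.31) or the second 2 hour array (0.28).

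Of the other uptake, reduction and haem scavenging genes, 1 of 12 was higher and 2 lower at 2 days, with a median of 0.02 (6.46% and 5.68% of all tested genes were called so). Steap2, a metalloreductase of the same family as Steap4, had 524 and 683 after 2 days, 288 and 378 after 2 hours, and 325 and 276 in untreated cells. It rose by 1.00 against untreated cells (adjusted p = 7.93e-06 by limma) and by 0.86 against 2 hours. Scara5, a ferritin receptor, changed by -0.53, a call lost without the first untreated array (-0.33). Its other tested probe gave -0.11. Slc39a14 (ZIP14), an importer of iron not bound to transferrin, had 174 and 169 after 2 days, 253 and 245 after 2 hours, and 217 and 207 in untreated cells. The 2 day arrays were the lowest and the 2 hour arrays the highest, with a difference of -0.30 from untreated cells (adjusted p = 0.0478 by limma), lost without any of the 4 arrays compared (-0.34 to -0.27), and of -0.53 from 2 hours (adjusted p = 0.000382 by limma). Its other tested probe gave 0.02 at 2 days against untreated cells and -0.30 against 2 hours, neither called.

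The haem genes included the largest change of all 77 at 2 hours. Hmox1, the enzyme that opens the haem ring and frees its iron, had 1582 and 1446 after 2 days, 4458 and 4274 after 2 hours, and 1441 and 1575 in untreated cells. The 2 hour arrays stood far above the other 4, with a log2 change of 1.53 against untreated cells (adjusted p = 2.03e-10 by limma) and no difference called at 2 days (0.0055). Alas1, the rate-limiting enzyme of haem synthesis in liver, had 4980.4 and 5603 after 2 days, 5038 and 5022 after 2 hours, and 7992 and 8671 in untreated cells. It was lower at both times, by -0.66 and -0.73, and 0.07 apart between them. At 2 days the haem transporter Slc48a1 rose by 0.88 and the biliverdin reductase Blvrb by 0.76 (0.49, also called, on its other probe), and the haem-binding protein Hebp1 changed by -0.70. In all, 3 of 15 were higher and 2 lower at 2 days, with a median of -0.04 (6.46% and 5.68% of all tested genes were called so).
Of 12 mitochondrial iron and iron-sulphur cluster genes, 1 was higher and 2 lower at 2 days, with a median of -0.06 (6.46% and 5.68% of all tested genes were called so). The mitochondrial iron importer Slc25a37 (mitoferrin) rose by 0.46, and the cluster assembly factors Isca1 and Bola3 changed by -0.73 and -0.37. A second Isca1 probe gave -0.59 and was called. Bola3 lost its call without the second untreated array (-0.31) or the first 2 day array (-0.34). Against 2 hours Isca1 was lower by a log2 change of -0.57, a call lost without the first 2 day array (-0.39), and Bola3 by -0.43.

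**Figure D4:**
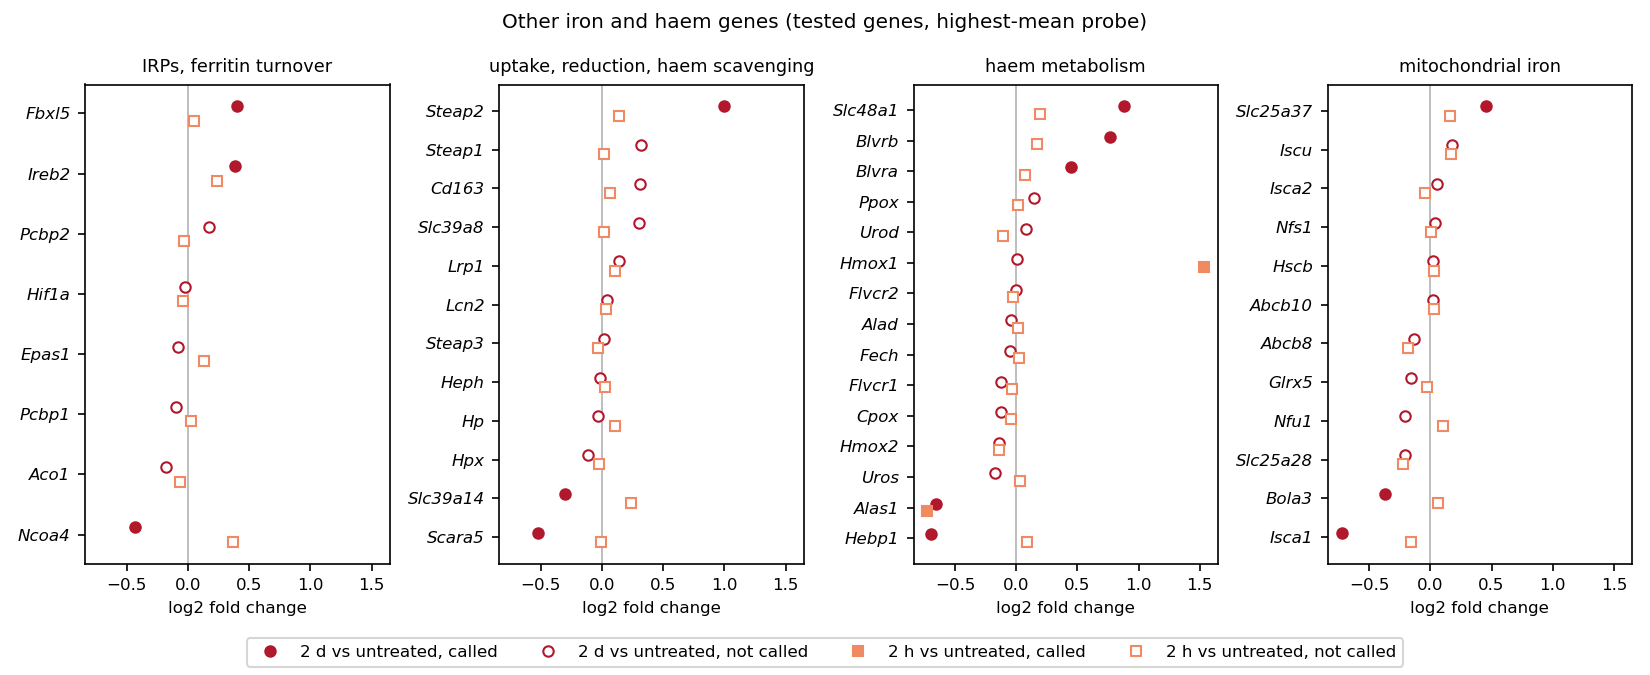
Log2 fold change against untreated cells of the tested genes of 4 further iron and haem lists. Circles are 2 days, squares 2 hours, and filled symbols are called. Hmox1 is far to the right at 2 hours alone, Alas1 is to the left at both times, and Steap2, Slc48a1 and Blvrb are furthest to the right at 2 days.

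The genes whose profile over the 6 arrays lay nearest to that of Hamp, by Euclidean distance between log2 intensities set relative to untreated cells, were the lymphatic growth factor Vegfc (0.33), the ISG15-conjugating enzyme Ube2l6 (0.35), Steap2 (0.36), the interferon-induced Ifitm1 (0.43) and Ms4a6d (0.44). In Vegfc the arrays had 308 and 375 after 2 days, 203 and 208 after 2 hours, and 195 and 160.1 in untreated cells. Like Hamp, it was higher in the second 2 day array than in the first and lower in the second untreated array than in the first. The choice by distance over these same arrays favours such a likeness. The genes nearest to Steap4 (Cldn5, Prrt1, Plec, Slfn4 and Mybpc1, at 0.07 to 0.08) had flat profiles like its own. These distances are over arrays that share their groups and are a description.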

How the data were processed

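The authors deposited linear intensities, 1 value for each probe on each array. Their scanning and normalizing software and genome build are not given in the sources used here. Sorted columns differed by at most 0.333%, as after quantile normalization, and background had not been subtracted, so folds of dim probes are understated. The small number of arrays limits precision.

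Probe names came from the platform's table, where 34885 of 45281 probes had 1 symbol, 18 several and 10378 were not listed. The log2 of each value was used as it stood. Probes passed with at least 2 arrays above that array's 50th percentile (26272 probes). A mean per group was fitted to the 6 arrays by limma 3.58.1 (R 4.3.3; empirical Bayes, residual degrees of freedom 3, prior 19.1), with calls at a Benjamini-Hochberg adjusted p under 0.05. Listed genes took their brightest passing probe, and their 12.1%, 2.60% and 14.7% backgrounds are over 13438 such genes. The procedure was tested on data simulated with independent noise, in 10 runs with 200 of 26272 probes changed at 2 days. It recovered 90.4% of log2 changes of 0.5 and 100% of those of 1. Of the calls 6.51% were false, more than the 0.05 threshold aims at. Fewer probes were changed than the 2529 called in the data at 2 days against untreated cells, so these rates need not hold for the data. Smaller changes were not simulated. Motifs were searched on both strands of RefSeq windows. The members and lists were chosen with earlier results of these data known. Named are every passing probe of the 10 genes, every called listed gene up to 4 a list and comparison (otherwise the 4 largest changes), and Bmp6, Stat3, Socs3, Aco1, Ireb2, Slc39a14 and Hmox1 in any case. Some listed genes are not reported here.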

Additional observations from a re-analysis of the deposited data

Results flagged for a closer look

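The change against untreated cells differed between 2 days and 2 hours for 4 probes of the iron genes, where time in culture and exposure to TNFα cannot be told apart. The test is the limma contrast of 2 days with 2 hours, which equals the difference between the changes against the shared untreated arrays. For Hamp the change at 2 days exceeded that at 2 hours by 0.80 on the log2 scale, and for Tfrc probe ILMN_2860804 by 0.42. For Tfr2 probe ILMN_2450491 the difference was -0.51, and for Cp probe ILMN_2555238 it was -1.14. For each of them the 2 day and 2 hour arrays did not overlap, which held for 49.5% of all probes. The probes were flagged by their calls on these same arrays, so this adds no support. These calls were lost with normexp for Hamp, Tfrc and Tfr2, without the second 2 hour array for Tfrc (0.30) and Tfr2 (-0.37), and without the second 2 day array for Tfrc (0.32). That of Cp was kept in all 15 alternatives that score this probe, which leave out the settings that read 1 value per gene. The other Cp probes were not called in this comparison. The brightest of them, ILMN_3083163, gave 0.11 (adjusted p = 0.607 by limma).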

How the results depend on the processing

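With normexp background correction, 0 probes of the iron genes were called at 2 days against untreated cells and 1 between 2 days and 2 hours, against 4 and 4, and 5, 1 and 6 other iron genes were called at 2 days, at 2 hours and between the times, against 24, 3 and 25 (limma, with 725, 112 and 965 of all probes called, against 2529, 496 and 3043). With normexp and a trended variance, chosen after seeing the data, the iron gene probes called were 3, 1 and 4 and the other iron genes 24, 3 and 25. When a gene's probes were averaged, 2 iron genes were called at 2 days and 0 at 2 hours, and with 1 probe per gene 0 at 2 hours, since the Cp probe is not that gene's brightest. Leaving out 1 array gave 2 to 4 iron gene probes at 2 days (2 without the second untreated or second 2 day array), 1 to 2 at 2 hours (2 without the second untreated array) and 2 to 5 between the times (2 without the second 2 hour array), and 15 to 18 other iron genes at 2 days (15 without the first untreated or first 2 day array), 3 to 4 at 2 hours and 18 to 20 between the times. All probes called fell to 1637 to 2068, 281 to 397 and 1939 to 2210 in those fits. At a threshold of 0.01, 1559, 300 and 1910 of all probes were called. Of 53 called results, normexp ended 41 and the mean of a gene's probes 13. Slc11a2 was lost under 10 of 17 alternatives at 2 days, and ferroportin was called between the times under 4. No direction turned among the called results under the alternatives tried. Same-numbered arrays deviated from their group means with correlations of 0.016, -0.065 and -0.12, so they showed little shared deviation. With 2 arrays a group this cannot exclude that the numbers pair the samples. With the replicate block 3, 1 and 4 iron gene probes and 22, 3 and 24 other iron genes were called. The crossed pairing, chosen after seeing the data, gave 2 iron gene probes at 2 hours. The cause of these differences was not tested. Signal over background limits Steap4, Hamp2 and Bmp6, and the top of the range limits Trf and Fth1.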
